A study of Mus musculus with 12 samples.

Results

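The genes described here encode the factors that start and extend protein chains on the ribosome, and some enzymes and inhibitors that act on them. They are the GENCODE mouse protein-coding genes whose symbols begin with *Eif1* to *Eif6* or with *Eef1* or *Eef2*, without the eIF2alpha kinases (*Eif2ak*) and without the transporter gene *Eif4enif1*. The rule found 63 genes among the 54446 gene identifiers of the count files, 48 for initiation and 15 for elongation. Elongation comprised the Eef genes together with *Eif5a* and *Eif5a2*, whose protein eIF5A acts in elongation and termination despite its name. Of the Eef genes 6 encode enzymes that modify elongation factors, so the elongation class is set by symbol. With the length of the longest annotated protein-coding mRNA, and the median member at 2514 nt, 32 genes were short (up to that length) and 31 long.

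Initiation begins when eIF2, bound to GTP and the initiator tRNA, joins the small ribosomal subunit together with eIF1, eIF1A, eIF3 and eIF5. The cap-binding complex eIF4F (eIF4E, the scaffold eIF4G and the helicase eIF4A) brings the mRNA, and after recognition of the start codon eIF5B joins the subunits, while eIF2B recharges eIF2. In elongation eEF1A delivers aminoacyl-tRNA, the eEF1B subunits recharge eEF1A, and eEF2 moves the ribosome along. YTHDF2 is a cytoplasmic reader of N6-methyladenosine (m6A) that is known for speeding the decay of the mRNAs it binds.

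The cells were CD11b+ myeloid cells, the fraction that contains the myeloid-derived suppressor cells, taken from MC38 tumors, which are grafts of a mouse colon carcinoma line. The host mice are called WT in the labels and are *Ythdf2* f/f mice without Cre in the methods. Tumors were either left unirradiated (Ctrl) or received 20 Gy of local irradiation (IR) 3 days before the cells were collected. Each condition had 3 pools, each from several mice, an Input library (part of the lysate, a measure of transcript abundance) and a YTHDF2 immunoprecipitation library (IP) per pool, 12 libraries in all. The methods call the pools technical replicates, so the p-values measure only the spread between these pools. Binding intensity is log2(IP/Input), and a YTHDF2 target is a gene whose IP was above its Input at an adjusted p under 0.05. Every adjusted p given here is that of the quasi-likelihood test in edgeR, corrected by the Benjamini-Hochberg method over all tested genes.

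The Input libraries held 34445784 to 42382532 reads on genes and the IP libraries 27852948 to 33882664. Reads that the counting assigned to no gene feature need not lie between genes, and whether they were intronic is not given. They made up 26.9% to 27.0% of the uniquely aligned reads in the Ctrl Inputs and 24.6% to 24.8% in the IR Inputs. In the IPs they made up 41.8% to 42.7% in Ctrl and 49.4% to 54.1% in IR. Of the myeloid marker list all 10 genes were found, and their summed level was 9541 to 10390 counts per 1e6 reads on genes (CPM) in the Ctrl Inputs and 12769 to 13556 in the IR Inputs, with 6 of them higher and 3 lower in IR. The 6 T cell markers summed to at most 2.83 CPM in any library and the 4 B cell markers to at most 49.3 CPM. Proliferation markers (6 genes) summed to 1447 to 1467 CPM in the Ctrl Inputs and 1089 to 1096 in the IR Inputs, with 4 of 6 lower in IR. The 5 tumor epithelial markers, 1 of which was at 0 in every library, summed to 119 to 127 CPM in the Ctrl Inputs and 90.9 to 96.9 in the IR Inputs. Nearly all of this was *Cdh1*, with means of 119 CPM in Ctrl and 88.4 in IR. *Epcam* went the other way, from 4.63 to 5.92, and the keratin genes were near 0 in the Inputs. The part of these shifts in the results below was not tested, and in bulk samples fewer cells of a type and less RNA per cell cannot be told apart. *Ythdf2* mRNA itself was lower in IR in the Input, by 0.25 on the log2 scale (standard error 0.052, adjusted p = 0.000297, edgeR).

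Together the 63 genes took 1.66% ± 0.012 (SD, n = 3) of the gene counts of Ctrl Input. The share was 1.83% ± 0.0082 for IR Input, 1.60% ± 0.020 for Ctrl IP and 1.45% ± 0.0073 for IR IP. Of the 63 genes, 59 could be tested for IP against Input in Ctrl and 60 in IR, having at least 10 counts in at least 3 libraries, and 61 could be tested in at least 1 comparison. The others were nearly absent. *Eif2s3y*, the Y-linked copy of the eIF2 gamma subunit, had no count in any of the 12 libraries, where 3 counts would be worth 0.0737 to 0.112 CPM. Other Y-linked genes were at the same floor, with at most 1 count of *Ddx3y* or *Uty* and at most 3 of *Kdm5d* in any library. *Eif4ebp3*, whose exons largely overlap another gene on the same strand, had at most 15 counts. *Eif4e1b*, a germline cap-binding protein, had no count in 5 of the 6 Inputs and 3 in the other one, with 36, 36 and 6 counts in the IR IPs. The methyltransferase gene *Eef1akmt3* had 1, 2 and 6 counts in the Ctrl Inputs and 39, 38 and 113 counts in the IR IPs.

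Per kilobase of mRNA, on the CPM scale, the elongation machinery stood highest in the Ctrl Inputs. *Eef1a1*, the aminoacyl-tRNA carrier, had 1598 CPM per kb, *Eef1b2*, an eEF1B exchange subunit, 703, and *Eif5a* 556. *Eef2*, the translocase, had 443, *Eef1g*, the eEF1B gamma subunit, 308, and *Eif3a*, the largest eIF3 subunit, 281. *Eif1*, which guards start codon choice, had 260. The eIF2 subunits differed widely, with 160 CPM per kb for the beta subunit *Eif2s2*, 18.1 for the alpha subunit *Eif2s1* and 13.3 for the gamma subunit *Eif2s3x*. Among the eIF4F genes the helicase *Eif4a1* had 173, the scaffold *Eif4g1* 48.2 and the cap-binding protein *Eif4e* 9.38. The 5 subunits of eIF2B, the exchange factor of eIF2, ranged from 2.68 (*Eif2b3*) to 24.9 (*Eif2b5*) CPM per kb. The level of *Eef1a1* was above that of *Eef1b2* in every pool. In the IR Inputs *Eif5a* and *Eef2* stood side by side, at 557 ± 6.61 and 547 ± 7.31 CPM per kb (SD, n = 3), and *Eif1*, at 344, was above *Eif3a*, at 308.

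**Figure D1:**
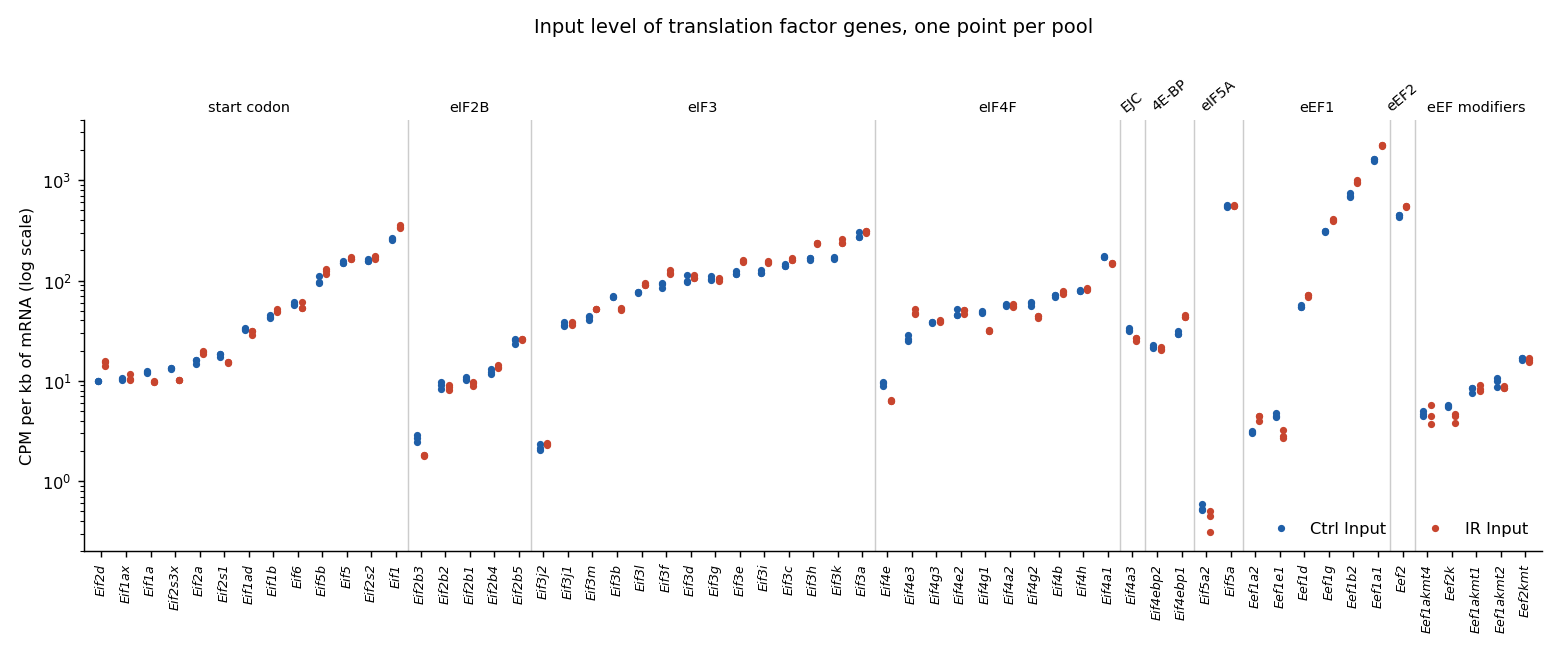
Input level of the 59 tested genes, in CPM per kilobase of mRNA on a log scale, grouped by role, with 1 point per pool (blue Ctrl, red IR). Eef1a1 stands highest at 1598 CPM per kb in Ctrl and 2237 in IR, and Eif5a2 lowest at 0.544 and 0.422.

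The YTHDF2 targets among these mRNAs included genes of start codon recognition, eIF3, eIF4F, eIF2B and the eIF4E inhibitors. In Ctrl, IP was above Input for 12 of 59 tested members and below it for 41, where 34.1% of all tested genes were above and 34.6% below. The median log2(IP/Input) of the members was −0.69, against 0.018 over all tested genes. Scaling by library size only moved the median of all genes by −0.18 in Ctrl and by 0.15 in IR. The 12 targets were *Eif5b*, *Eif3a*, *Eif3j1*, *Eif3j2*, *Eif5*, *Eef2kmt*, *Eif2s2*, *Eif4e3*, *Eif4ebp2*, *Eif2b4*, *Eif4g3* and *Eif3c*. Of these, *Eef2kmt*, a lysine methyltransferase of eEF2, was the sole elongation gene.

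*Eif5b*, the GTPase that joins the ribosomal subunits (chr1:37998010-38055579, plus strand, mm10), had 866, 743 and 747 CPM in the Ctrl Inputs and 2938, 3064 and 3373 CPM in the Ctrl IPs. Every IP lay above every Input. Its binding intensity in Ctrl was 2.07 (standard error 0.058, adjusted p = 2.09e-15, edgeR), the largest of the 59. *Eif3a* (chr19:60761117-60790658, minus strand) had 1546, 1395 and 1386 CPM in the Ctrl Inputs and 4270, 4374 and 4570 in the Ctrl IPs, a binding intensity of 1.69 (standard error 0.042, adjusted p = 4.33e-16, edgeR). It had more CPM in the Ctrl IPs than any other member, *Eef1a1* included. *Eif3j1*, which encodes the loosely attached eIF3 subunit j, rose from 210, 192 and 196 CPM in the Ctrl Inputs to 472, 509 and 529 in the Ctrl IPs, which gave a binding intensity of 1.41 (standard error 0.049, adjusted p = 4.59e-14, edgeR). Exons of *Eif5b* and *Eif3j1* are overlapped over 16.8% and 19% of their length by the opposite-strand genes *Rev1* and *Spg11*. Such overlap covers 23.0% of *Eef2kmt*, 43.3% of *Eif3d* and 15.3% of *Eif1ad*, and the sources used here do not say whether counting used strand.

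Several of these mRNAs held many copies of the purine motif GAAGAA, which was picked for display after the values were seen. The mRNA of *Eif5b* held 31 matches over 7797 nt, that of *Eif3a* 22 over 5125 nt and that of *Eif2s2* 11 over 2542 nt, overlapping matches included and on the sense strand alone. The stretch of 90 coding bases with the most matches is shown for 3 targets and, for contrast, for the eIF4F scaffold *Eif4g1* and for *Eif2s1*, the member with the lowest binding intensity in Ctrl. Bases are given 5′ to 3′ on the mRNA strand from GENCODE M21 transcripts, with GAAGAA in capitals. The stretches lie at chr19:60769900-60769989 (minus strand, exon 16 of 22), chr2:154888271-154888360 (minus, exon 2 of 9), chr2:122041582-122041671 (plus, exon 4 of 8), chr16:20679830-20679919 (plus, exon 9 of 32) and chr12:78884803-78884892 (plus, exon 8 of 8) of mm10, in the order below.
Eif3a: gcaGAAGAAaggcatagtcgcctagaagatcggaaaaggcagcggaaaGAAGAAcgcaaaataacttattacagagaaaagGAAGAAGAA
Eif2s2: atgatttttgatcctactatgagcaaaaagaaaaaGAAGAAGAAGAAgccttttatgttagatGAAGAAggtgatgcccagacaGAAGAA
Eif3j1: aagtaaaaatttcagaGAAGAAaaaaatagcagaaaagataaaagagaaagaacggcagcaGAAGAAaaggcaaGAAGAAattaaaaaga
Eif4g1: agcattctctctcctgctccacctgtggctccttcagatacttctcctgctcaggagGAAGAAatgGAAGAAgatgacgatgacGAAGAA
Eif2s1: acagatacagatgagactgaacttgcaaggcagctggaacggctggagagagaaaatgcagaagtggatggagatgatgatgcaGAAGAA
The stretches held 4, 5, 3, 3 and 1 matches in that order, so the target *Eif3j1* and *Eif4g1*, which was below Input in Ctrl, had the same number.

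The other targets had smaller values. *Eif5*, the GTPase-activating protein of eIF2, had 640, 608 and 599 CPM in the Ctrl Inputs and 1356, 1397 and 1403 in the Ctrl IPs, with a binding intensity of 1.25 (standard error 0.037, adjusted p = 4.59e-15, edgeR). *Eif3j2*, a copy of *Eif3j1* at a low level, had 4.84 to 5.57 CPM in the Ctrl Inputs and 12.1 to 13.1 in the Ctrl IPs. In both genes no IP overlapped an Input. The remaining binding intensities in Ctrl were 1.02 for *Eef2kmt*, 1.0 for *Eif2s2*, 0.68 for the divergent cap-binding protein *Eif4e3*, 0.51 for the eIF4E inhibitor *Eif4ebp2*, 0.47 for the eIF2B delta subunit *Eif2b4*, 0.46 for the scaffold *Eif4g3* and 0.25 for the eIF3 core subunit *Eif3c*. With libraries scaled by library size only, *Eif3c* was at 0.065 and not past the threshold.

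At the other end stood partners of the same complexes. *Eif2s1* had 59.2, 62.5 and 63.0 CPM in the Ctrl Inputs and 11.0, 11.1 and 7.19 in the Ctrl IPs, which gave a binding intensity of −2.57 (standard error 0.12, adjusted p = 3.25e-12, edgeR). *Eif1ax*, the X-linked eIF1A gene, had 54.3, 55.1 and 52.3 CPM against 7.04, 10.8 and 8.90, a binding intensity of −2.52 (standard error 0.12), and *Eif2s3x* stood at −2.14. No IP of these genes reached an Input. The 3 subunits of eIF2 thus differed in sign, with *Eif2s2* above Input in all 3 Ctrl pools and *Eif2s1* and *Eif2s3x* below it in all 3. *Eif5a* had 776, 821 and 802 CPM in the Ctrl Inputs and 189, 185 and 174 in the Ctrl IPs, a binding intensity of −2.05 (standard error 0.042, adjusted p = 3.43e-17, edgeR). *Eef1a1* had 2785, 2887 and 2931 CPM in the Ctrl Inputs against 880, 879 and 842 in the Ctrl IPs, and a binding intensity of −1.65 (standard error 0.033). The groups of *Eif5a* and *Eef1a1* did not overlap.

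By role, the eIF3 genes split into 4 above and 9 below Input of 14 tested, from −1.57 for *Eif3m* to 1.69 for *Eif3a*. For this and the roles below, 34.1% of all tested genes were above Input and 34.6% below. The eIF4F genes and their cofactors had 2 above and 8 below of 10, among them *Eif4e* at −1.65, the helicases *Eif4a1* at −1.56 and *Eif4a2* at −1.41, and the scaffold of cap-independent initiation *Eif4g2* at −1.55. The start codon group had 3 above and 9 below of 13. Of the 6 genes grouped as eEF1 by symbol, *Eef1e1* included, 5 were below Input, with *Eef1a2*, the muscle and nerve form, at −0.57 (adjusted p = 0.0608, edgeR). With the replicate number as a block, pairing IP and Input of the same number, *Eef1a2* was past the threshold (−0.65). The eIF3 subunit *Eif3d*, at −0.13 without the block, was not (−0.12). The call of *Eif3d* was also lost without Ctrl replicate 1 (−0.0338), 2 (−0.14) or 3 (−0.15). The inhibitors of eIF4E stood on opposite sides, *Eif4ebp1* at −1.22 and *Eif4ebp2* at 0.51. Of the eIF2B subunits 3 of 5 passed in neither direction.

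In IR, 9 of 60 tested members were above Input and 41 below, where 32.1% of all tested genes were above and 30.4% below, and the median of the members was −0.73 against 0.10 over all tested genes. With *Eef1akmt3*, described below, left out, the highest binding intensity was that of *Eif5b*. It had 1006, 911 and 965 CPM in the IR Inputs and 1568, 1578 and 1705 in the IR IPs, a binding intensity of 0.81 (standard error 0.046, adjusted p = 6.60e-08, edgeR). Next came *Eif4ebp2* with 121, 117 and 125 CPM in the Inputs and 191, 205 and 172 in the IPs, at 0.71, and *Eif5* at 0.70. *Eif3a* had 0.63, *Eif3j1* 0.56, *Eif2s2* 0.35, *Eef2kmt* 0.32 and *Eif4g3* 0.15. In all of these every IP lay above the Input of the same number. *Eef2kmt* and *Eif4g3* were not past the threshold with no filter on low counts (0.19 and 0.0093). The remaining gene called above Input in IR was *Eef1akmt3*, at 3.91 (standard error 0.74) on only 5, 3 and 8 counts in the Inputs. It passed the count filter only through the IR IPs, which favoured a call above Input in advance. The 9 members above Input include it, but its call is no evidence of binding.

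Lowest in IR were *Eif1ax* at −2.78, *Eif2s1* at −2.48 and *Eef1e1*, a scaffold protein of the aminoacyl-tRNA synthetase complex, at −2.40. *Eef1e1* had 7.20, 8.21 and 6.89 CPM in the IR Inputs and 1.08, 0.723 and 2.27 in the IR IPs, without overlap. Of the genes tested in both conditions, 8 were above Input in both and 38 below in both. Such joint calls were not counted over all tested genes. *Eif3c* was above Input in Ctrl and below in IR, at −0.15 (standard error 0.040, adjusted p = 0.00689, edgeR). This call was lost with each IR pool left out (without IR replicate 1 −0.074, 2 −0.082 and 3 −0.080) and with library size only (−0.000261). With the replicate block the calls of IR gained *Eef1a2* (−0.63) and the lysine methyltransferase gene *Eef1akmt4* (−0.74), which stood at −0.58 and −0.67 without it.

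**Figure D2:**
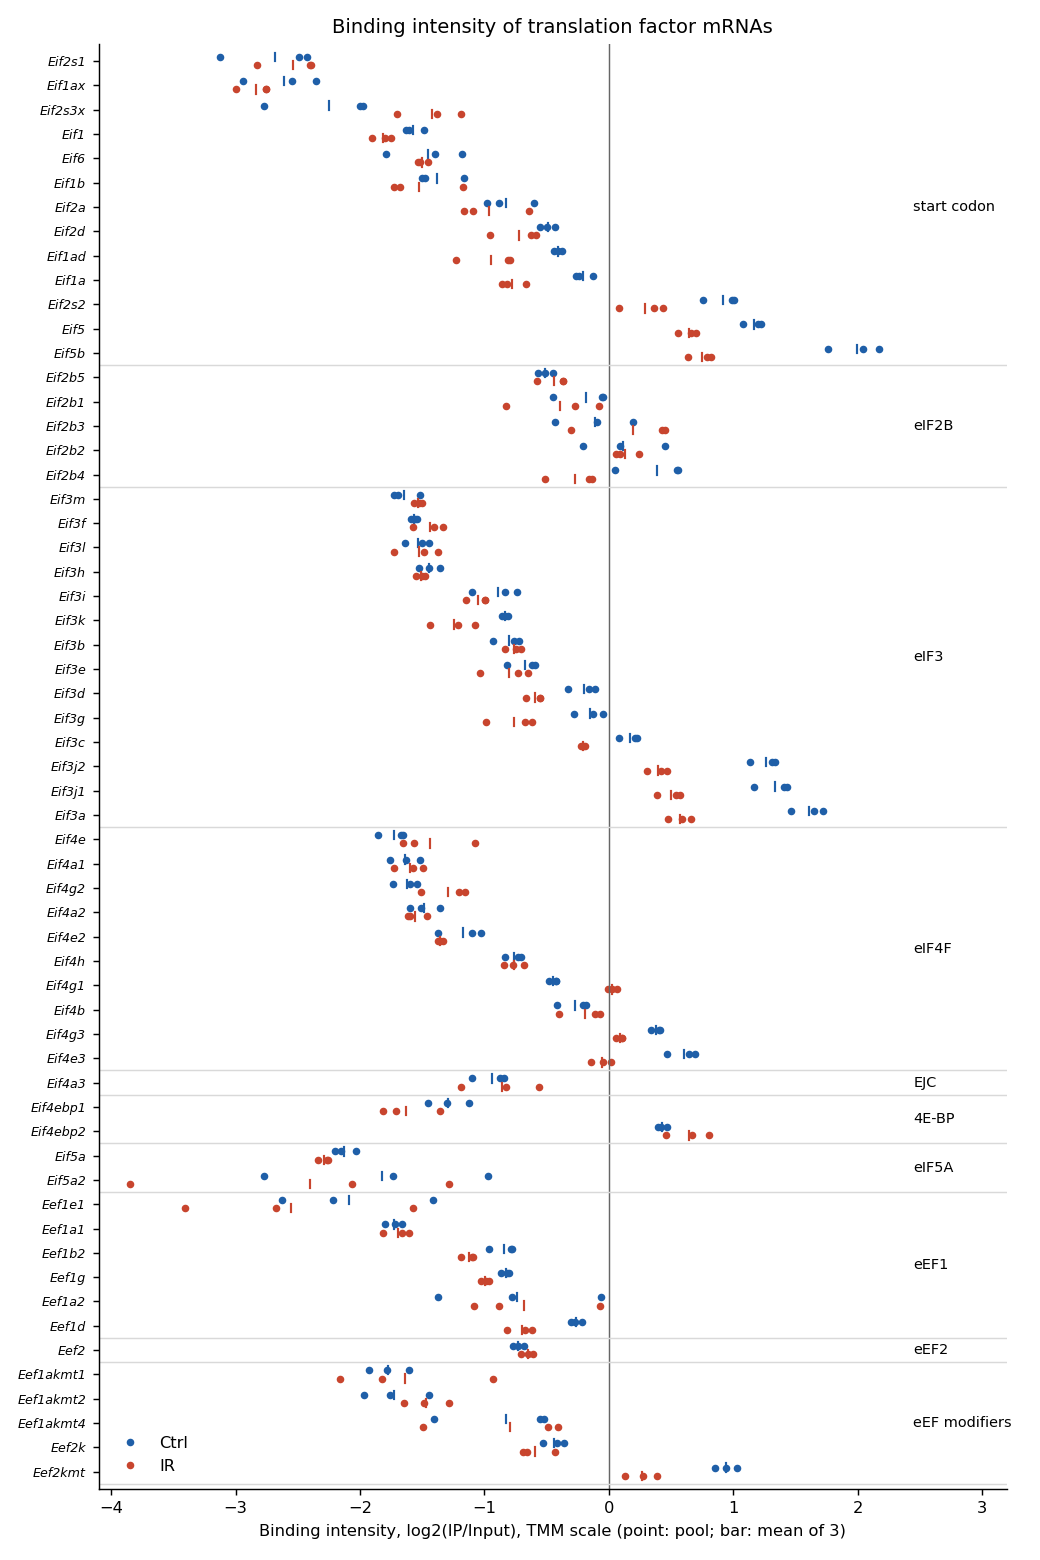
Binding intensity, log2(IP/Input), of the 59 members tested in Ctrl, grouped by role. Points are pools (blue Ctrl, red IR) and short bars their means over 3 pools. Eif5b, Eif3a, Eif3j1, Eif3j2 and Eif5 stand to the right of 0 in both conditions and further right in Ctrl, while Eif2s1 and Eif1ax stand far to the left in both.

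The change of binding intensity between conditions was tested as an interaction over the 12 libraries. Binding intensity was higher in IR for 3 of 61 tested members and lower for 20, where 6.28% of all tested genes were higher and 13.9% lower. The median change was −0.15 for the members and −0.083 over all tested genes. TMM scaling sets most genes to no change, and library size only moved the median of all genes by 0.31, with 17 members then higher and 7 lower. The share of reads assigned to no gene feature also rose from Ctrl IP to IR IP, as given above, and its part in the change was not tested.

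*Eif5b* had the largest fall, from pool values of 1.76 to 2.17 in Ctrl to 0.64 to 0.82 in IR, a change of −1.24 (standard error 0.080, adjusted p = 9.19e-10, edgeR). *Eif3a* changed by −1.03 (standard error 0.063), *Eif3j2* by −0.86 (standard error 0.23) and *Eif3j1* by −0.83 (standard error 0.073). No IR pool of these 4 genes reached a Ctrl pool. With library size only they stood at −0.93, −0.72, −0.55 and −0.52 in that order, and *Eif3j2* was then not past the threshold. *Eif3j2*, with fewer counts, also lost its call without Ctrl replicate 2 (−0.82) or 3 (−0.83). Of 14 eIF3 genes 7 fell and 0 rose, where 13.9% of all tested genes fell and 6.28% rose. The 7 were *Eif3a*, *Eif3c*, *Eif3d*, *Eif3g*, *Eif3j1*, *Eif3j2* and *Eif3k*, and the other members of the complex ranged from −0.16 to 0.13. With library size only, *Eif3c* (−0.066), *Eif3d* (−0.075), *Eif3g* (−0.29) and *Eif3k* (−0.0925) were not past the threshold, while *Eif3b*, *Eif3f*, *Eif3h*, *Eif3l* and *Eif3m* were called higher, so that the complex then had 2 falls and 5 rises.

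A further 16 members with a lower binding intensity had smaller changes, from −0.68 for *Eef2kmt* to −0.16 for *Eef1g*. Among them were *Eif4e3* at −0.65, *Eif2b4* at −0.65, *Eif2s2* at −0.62, *Eif1a*, the autosomal eIF1A gene, at −0.57, and *Eif5* at −0.52. *Eif2b4* lost its call with library size only (−0.34), as did *Eif1a* (−0.26), *Eif1ad* (−0.22) and *Eef1d* (−0.12), and it lost it without Ctrl replicate 2 (−0.57) or 3 (−0.56). The eEF1B subunit genes *Eef1d* (−0.44), *Eef1b2* (−0.28) and *Eef1g* (−0.16) were also lower, while *Eef1a1* stood at 0.04 (adjusted p = 0.711, edgeR) and *Eef2* at 0.08 (adjusted p = 0.279). *Eef1a1* and *Eef2* were called higher with library size only (0.35 and 0.39). *Eef2* was also called higher with DESeq2 (0.14), DESeq2 size factors (0.14), at least 10 counts in every library (0.19) and protein-coding genes only (0.16). It was not called with no filter on low counts, with the replicate block or with any single replicate left out. Under library size only, the changes of *Eef1b2*, *Eef1g*, *Eif1* and *Eif4g3* turned positive (0.03, 0.15, 0.07 and 0.02). With the replicate block *Eef1g*, at −0.16, was not past the threshold. Its call was also lost without Ctrl replicate 2 (−0.15) or 3 (−0.14) and without IR replicate 1 (−0.13), 2 (−0.14) or 3 (−0.16), and that of *Eif1* without Ctrl replicate 1 (−0.19) or IR replicate 3 (−0.18).

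For 4 of these mRNAs, chosen after their values were seen, the only GGACT of the mRNA is shown with its flanks. GGACT is one form of the sequence in which m6A is usually placed, and whether these sites carry the mark was not measured here. The sites are the lone match of *Eif5* in its 3′ UTR (chr12:111545845-111545869, plus strand) and the lone matches of *Eef1d* (chr15:75903178-75903202, minus), *Eef1g* (chr19:8977954-8977978, plus) and *Eef1b2* (chr1:63179557-63179581, plus) in coding sequence of mm10. The match is in capitals.
Eif5: tcagagccttGGACTtcagacacaa
Eef1d: cataggcaggGGACTcctgacacag
Eef1g: attggcaggtGGACTatgagtcgta
Eef1b2: ctgcttttgaGGACTacgtacagtc
*Eif5* was above Input in both conditions with its single site, and the other 3 were below Input in both.

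The 3 members with a higher binding intensity in IR were *Eif2s3x*, *Eif4g1* and *Eif4g2*. *Eif4g1* had pool values from −0.48 to −0.43 in Ctrl and from −0.01 to 0.07 in IR, a change of 0.48 (standard error 0.060, adjusted p = 7.45e-06, edgeR). *Eif4g2* changed by 0.35 (standard error 0.090, adjusted p = 0.00895, edgeR), and by 0.30 without Ctrl replicate 3, when its call was lost. *Eif2s3x* changed by 0.81 (standard error 0.22, adjusted p = 0.0119, edgeR), with 12.2, 7.11 and 12.2 CPM in the Ctrl IPs and 14.2, 16.4 and 11.4 in the IR IPs. Without IR replicate 2 it stood at 0.70 and was not past the threshold. The 3 genes shared a lower Input in IR, given below, and none of them had a called change in the IP. The IPs of *Eif4g1* did not overlap, with 200, 198 and 201 CPM in Ctrl and 179, 178 and 185 in IR, and its fall was called in one fit of all 12 libraries.

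**Figure D3:**
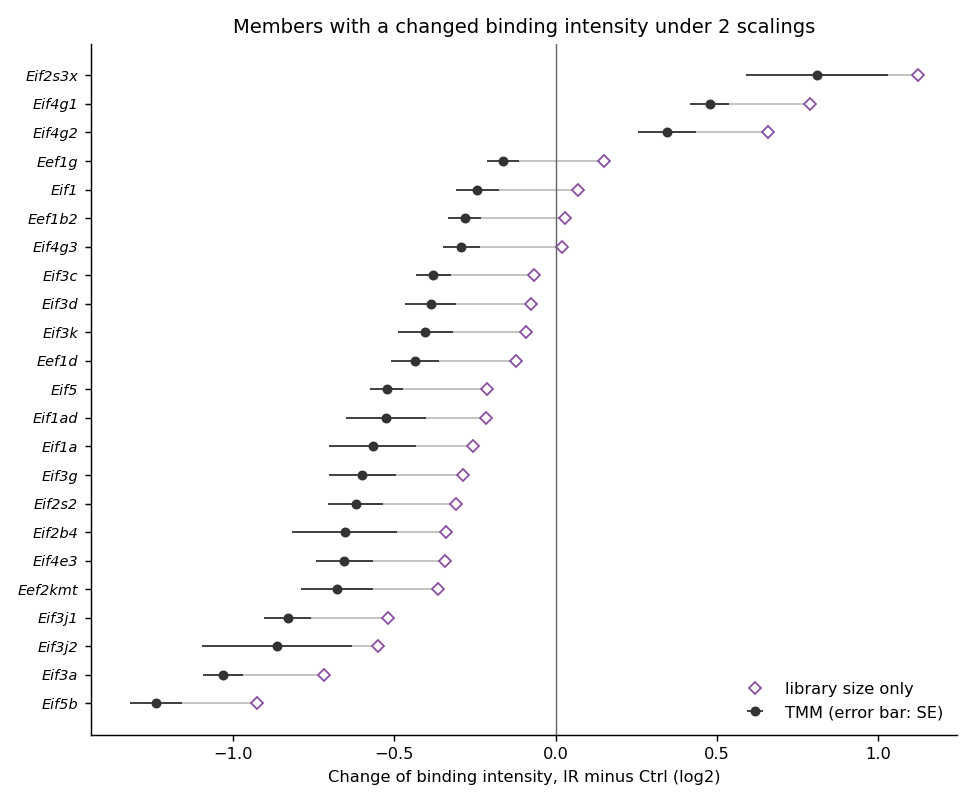
Change of binding intensity, IR minus Ctrl on the log2 scale, of the 23 members past the threshold with TMM scaling (filled circles, bars SE) and the same change with library size only (open diamonds). Every diamond lies to the right of its circle, and those of Eef1g, Eif1, Eef1b2 and Eif4g3 lie above 0, while Eif5b and Eif3a stay at −0.93 and −0.72.

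In the Input, most genes of the eEF1 complex and *Eef2* were higher in IR, and 5 of 10 genes of eIF4F and its cofactors were lower. Of 59 tested members 20 rose and 20 fell, where 21.0% of all tested genes rose and 23.9% fell, with a median of −0.026 for the members and 0.0072 over all tested genes. One fit of all 12 libraries gave 7 falls. The calls lost there were those of *Eef1a2* and *Eif2a* among the rises and, among the falls named below, of *Eef1e1*, *Eif1ad*, *Eif2b1*, *Eif2b3*, *Eif2s1*, *Eif2s3x*, *Eif3g*, *Eif4a2*, *Eif4a3*, *Eif4ebp2*, *Eif5a* and *Eif6*. Input counts of every named gene below were compared in libraries in which 4 of 6 proliferation markers were lower and 6 of 10 myeloid markers higher in IR, as given above.

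Of the 6 genes grouped as eEF1 by symbol 5 rose, where 21.0% of all tested genes rose and 23.9% fell. *Eef1e1*, which encodes a scaffold protein of the aminoacyl-tRNA synthetase complex, fell. *Eef1a1* had 2785, 2887 and 2931 CPM in the Ctrl Inputs and 3945, 4060 and 4036 in the IR Inputs, a log2 fold change of 0.41 (standard error 0.023, adjusted p = 9.16e-14, edgeR). *Eef1b2* rose by 0.38, *Eef1g* by 0.31 and *Eef1d* by 0.28. *Eef1a2* rose by 0.40 from a low level, 6.35 to 6.54 CPM in the Ctrl Inputs. *Eef2* went from 1340, 1388 and 1379 CPM to 1665, 1701 and 1707, by 0.23 (standard error 0.025, adjusted p = 2.86e-08, edgeR). In *Eef1a1*, *Eef1b2*, *Eef1d*, *Eef1g* and *Eef2* every IR Input was above every Ctrl Input. *Eef2k*, the kinase that inhibits eEF2, fell by 0.45 (standard error 0.068, adjusted p = 4.72e-06, edgeR), from 35.7 to 37.9 CPM in Ctrl to 25.3 to 30.5 in IR. *Eef1e1* fell by 0.72 (standard error 0.11), from 11.2 to 12.3 CPM to 6.89 to 8.21.

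Of the eIF3 genes 8 of 14 rose in the Input and 2 fell, where 21.0% of all tested genes rose and 23.9% fell. The rises were those of *Eif3k* (0.47), *Eif3h* (0.43), *Eif3f* (0.36), *Eif3e* (0.33), *Eif3i* (0.27), *Eif3m* (0.21), *Eif3l* (0.19) and *Eif3c* (0.12). *Eif3k* had 152, 149 and 156 CPM in the Ctrl Inputs and 237, 216 and 216 in the IR Inputs, and *Eif3h* had 206, 219 and 216 against 306, 305 and 302. These groups did not overlap. *Eif3b*, a core subunit, fell by 0.49 (standard error 0.035), and *Eif3g* by 0.11, the call of *Eif3g* being lost without Ctrl replicate 1 (−0.082), IR replicate 1 (−0.086) or IR replicate 3 (−0.11). *Eif3a*, the scaffold, stood at 0.05 (adjusted p = 0.229, edgeR).

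The eIF4F genes went the other way, with 1 rise and 5 falls among 10, beside 21.0% rises and 23.9% falls over all tested genes. *Eif4g1* fell from 279, 265 and 271 CPM to 179, 175 and 176, by 0.70 on the log2 scale (standard error 0.034, adjusted p = 3.78e-15, edgeR). *Eif4e* fell by 0.64 (standard error 0.056), from 47.4, 48.3 and 44.7 CPM to 31.5, 31.7 and 31.8. *Eif4g2* fell by 0.52 (standard error 0.033), from 450, 475 and 490 CPM to 334, 356 and 352, and *Eif4a1* by 0.30 (standard error 0.031), from 305, 306 and 308 to 264, 259 and 263. Neither pair of groups overlapped. *Eif4g3*, at 309 to 316 CPM in Ctrl and 313 to 332 in IR, was not called. *Eif4a2* fell by 0.10, with overlapping groups and its call lost without Ctrl replicate 2 (−0.083) or 3 (−0.11) and without IR replicate 1 (−0.072) or 3 (−0.0915). The rise was that of *Eif4e3*, from 72.1, 62.3 and 65.7 CPM to 130, 118 and 120, by 0.80 (standard error 0.050, adjusted p = 5.60e-13, edgeR), the largest of all members. Exons of *Eif4e3* are shared over 14.8% of their length with the same-strand gene *Gm20696*. *Eif4ebp1*, the inhibitor of eIF4E downstream of mTOR, rose by 0.47 (standard error 0.044), from at most 62.6 CPM in any Ctrl Input to at least 85.5 in any IR Input, and *Eif4ebp2* fell by 0.14.

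In the start codon group 4 genes rose and 5 fell of 13, where 21.0% of all tested genes rose and 23.9% fell. *Eif2d*, an alternative initiator tRNA carrier, rose from 32.9, 32.9 and 32.8 CPM to 51.0, 52.0 and 46.8, by 0.52 (standard error 0.056, adjusted p = 1.65e-08, edgeR). *Eif1* rose by 0.33 (standard error 0.031), from 334, 346 and 351 CPM to 445, 468 and 453, *Eif2a* by 0.22 and *Eif5b* by 0.21. *Eif2s3x* fell by 0.46, *Eif1a* by 0.40, *Eif2s1* by 0.32, *Eif1ad* by 0.19 and *Eif6*, which keeps the subunits apart, by 0.16. The call of *Eif6* was lost without IR replicate 2 (−0.13) or 3 (−0.12). Of the eIF2B genes *Eif2b3* fell by 0.64 and *Eif2b1* by 0.25, and none rose. The helicase of the exon junction complex, *Eif4a3*, fell by 0.40, and *Eif5a* by 0.08. The groups of *Eif5a* overlapped, and its call was lost without Ctrl replicate 2 (−0.0638) or 3 (−0.082) and without IR replicate 1 (−0.066) or 3 (−0.076).

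In the IP, 8 of 61 tested members were higher in IR and 16 lower, where 6.12% of all tested genes were higher and 9.85% lower. The median was −0.075 for the members and 0.062 over all tested genes. With library size only, which moved the median of all genes by 0.21, 19 members were higher and 9 lower. *Eif3f* had 71.3, 76.2 and 80.6 CPM in the Ctrl IPs and 117, 107 and 114 in the IR IPs, a rise of 0.58 (standard error 0.080, adjusted p = 9.17e-05, edgeR). *Eef1a1* rose by 0.53 (standard error 0.049, adjusted p = 1.06e-06, edgeR), from 880, 879 and 842 CPM to 1299, 1284 and 1146, *Eif3h* by 0.46 and *Eef2* by 0.39. In each of these 4 genes all IR pools were above all Ctrl pools, and each had also risen in the Input.

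*Eif5b* fell in the IP from 2938, 3064 and 3373 CPM to 1568, 1578 and 1705, by 0.94 (standard error 0.046, adjusted p = 6.56e-10, edgeR). *Eif3a* fell from 4270, 4374 and 4570 CPM to 2244, 2298 and 2530, by 0.89 (standard error 0.040, adjusted p = 3.33e-10, edgeR). *Eif1a* fell by 0.88 (standard error 0.14), from 28.5 to 32.2 CPM to 15.4 to 17.8, and *Eif3j1* by 0.81 (standard error 0.056). No IR IP of these genes reached a Ctrl IP. *Eif3j2* (−0.73), *Eef2kmt* (−0.72), *Eif3g* (−0.63), *Eif1ad* (−0.62), *Eif2s2* (−0.52), *Eef2k* (−0.52) and *Eif2b4* (−0.48) followed. Without Ctrl replicate 1, 2 or 3 the call of *Eif3j2* was lost (−0.74, −0.69 and −0.76), that of *Eef2k* without Ctrl replicate 1 (−0.49) or 2 (−0.50), and that of *Eif2b4* without Ctrl replicate 2 (−0.43) or 3 (−0.40) or IR replicate 2 (−0.38).

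The Input and IP comparisons use different libraries and can be set side by side. Over all tested genes 21.0% rose and 23.9% fell in the Input, and 6.12% rose and 9.85% fell in the IP. Joint calls were not counted over all tested genes, so those below only describe the members. Both were higher in IR for 8 genes, namely *Eef1a1*, *Eef1b2*, *Eef1g*, *Eef2*, *Eif3e*, *Eif3f*, *Eif3h* and *Eif4e3*, and both were lower for 5. The IP calls of *Eif3e* (0.24 to 0.32) and *Eif4e3* (0.23 to 0.25) were lost with single pools left out, namely any Ctrl replicate or IR replicate 2 for both and also IR replicate 3 for *Eif3e*. For *Eif5b* and *Eif3c* the Input was higher and the IP lower, at 0.21 and −0.94 for *Eif5b* and at 0.12 and −0.17 for *Eif3c*, whose IP stood at 0.03 with library size only and lost its call without Ctrl replicate 2 (−0.16) or 3 (−0.16) or IR replicate 2 (−0.15). A further 9 genes were lower in the IP with no called Input change, *Eif3a*, *Eif3j1* and *Eif2s2* among them. Of the genes that fell in the Input, 15 had no called IP change, among them *Eif4g1*, *Eif4g2*, *Eif4e* and *Eif4a1*.

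**Figure D4:**
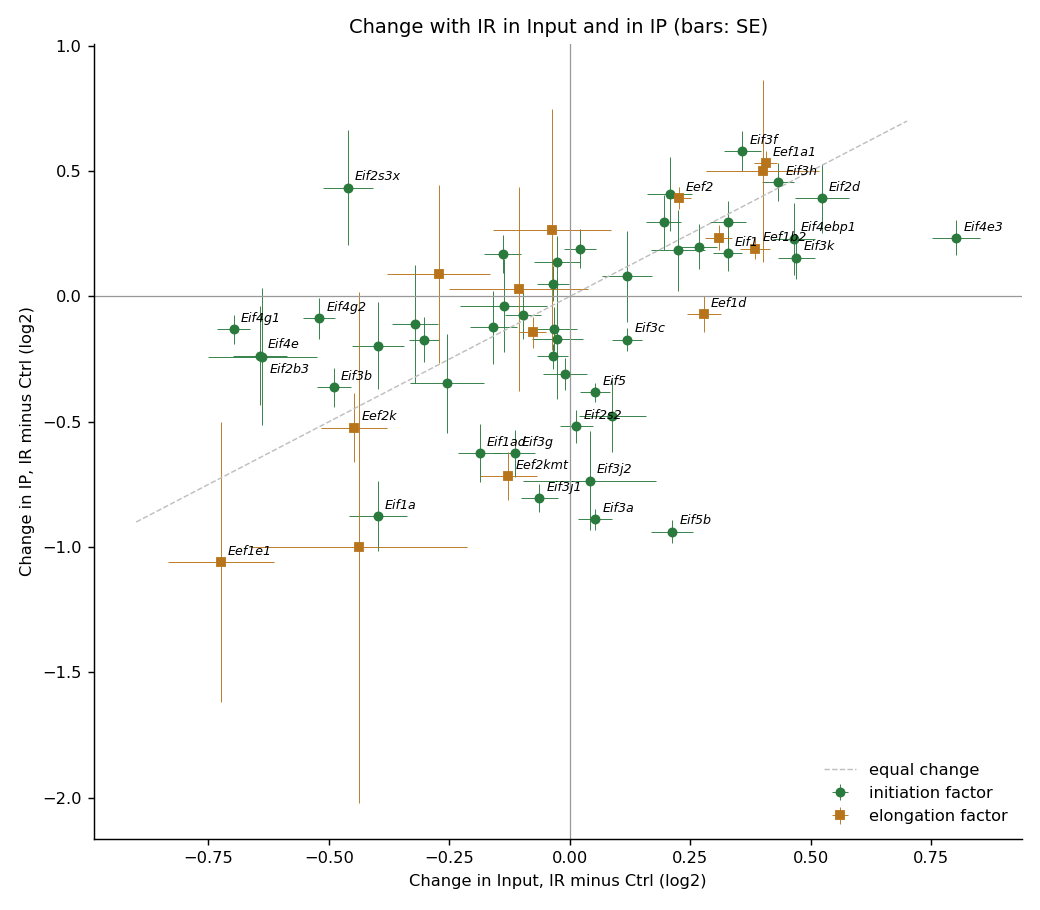
Change with IR in the Input (horizontal, log2) and in the IP (vertical, log2) of the 59 members tested in both, with SE bars, green circles for initiation and orange squares for elongation factors. Eif5b, Eif3a and Eif3j1 lie far below the dashed line of equal change, Eif4g1 and Eif4g2 above it, and Eef1a1, Eif3f and Eif3h near it at the upper right.

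Short and long factors differed in binding intensity and in Input change, and so did short and long protein-coding genes. In Ctrl 3 of 29 tested short members were above Input and 22 below, where 23.6% of short protein-coding genes were above and 49.3% below. Of 30 long members 9 were above and 19 below, where 38.3% of long protein-coding genes were above and 35.9% below. The median binding intensity per pool was −0.97 ± 0.085 (SD, n = 3) for short and −0.42 ± 0.033 for long members in Ctrl, and −1.14 ± 0.053 and −0.63 ± 0.046 in IR. Long exceeded short members by 0.55 ± 0.095 in Ctrl and 0.51 ± 0.071 in IR (SD, n = 3), and in every pool. Over short and long protein-coding genes the medians of the fitted log2(IP/Input) were −0.41 and 0.053 in Ctrl. In IR they were −0.57 and 0.13, so such a gap was not particular to the members. Split by coding length in place of mRNA length, the difference was 0.15 in Ctrl and 0.41 in IR. In IR 1 of 29 short members was above Input and 22 below, where 16.6% of short protein-coding genes were above and 50.5% below. Of 31 long members 8 were above and 19 below, where 36.5% and 29.2% of long protein-coding genes were. The 8 include *Eef1akmt3*, which passed the count filter only through the IR IPs. For the change of binding intensity, 0 of 30 short members rose and 9 fell, where 2.33% and 22.7% of short protein-coding genes did, and 3 of 31 long members rose and 11 fell, where 10.1% and 15.1% of long ones did.

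In the Input, 14 of 29 short members rose with IR and 7 fell, where 31.6% of short protein-coding genes rose and 14.9% fell. Of 30 long members 6 rose and 13 fell, where 18.2% and 34.4% of long protein-coding genes did. The medians were 0.12 for short and −0.049 for long members, against 0.095 and −0.074 over short and long protein-coding genes. In the IP, 6 of 30 short members rose and 5 fell, against 2 rises and 11 falls of 31 long members, where 4.46% of short and 8.37% of long protein-coding genes rose and 611 of 5085 short and 12.8% of long ones fell.

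Initiation and elongation factors differed less. In Ctrl 11 of 45 tested initiation and 1 of 14 elongation members were above Input, and 29 and 12 were below, beside 34.1% above and 34.6% below over all tested genes. The median per pool was −0.59 ± 0.051 (SD, n = 3) for initiation and −0.83 ± 0.034 for elongation in Ctrl, a difference of 0.24 ± 0.017, and the difference in IR was 0.23 ± 0.059. When *Eif5a* and *Eif5a2* were counted with initiation, as their symbols have it, it was 0.093 in Ctrl and 0.089 in IR. In the Input 14 of 45 initiation members rose and 16 fell with IR, and 6 of 14 elongation members rose and 4 fell, beside 21.0% and 23.9% over all tested genes.

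Because GAAGAA was picked with the binding values in view, its relation to them is a description. In Ctrl the Spearman coefficient with binding intensity over the 59 members was 0.43 for matches per kb, 0.47 for their number and 0.30 for mRNA length. In IR, over 60 members, it was 0.34 per kb and 0.43 for the number, against 0.39 for mRNA length and 0.40 for coding length. Over 13032 protein-coding genes in Ctrl it was 0.027 per kb and 0.16 for the number. Members share complexes and sequence ancestry and are not independent points. The 4 tested members with at least 3 matches per kb (*Eif5b*, *Eif3a*, *Eif2s2* and *Eif3j2*) were all above Input in Ctrl, and 3 of 31 with under 1 per kb were. Among protein-coding genes 2.75% had at least 3 per kb, of which 172 of 358 were above Input, against 31.8% of those under 1 per kb. In the change of binding intensity the same 4 members fell, and of 395 protein-coding genes with at least 3 per kb 188 fell and 19 rose.

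**Figure D5:**
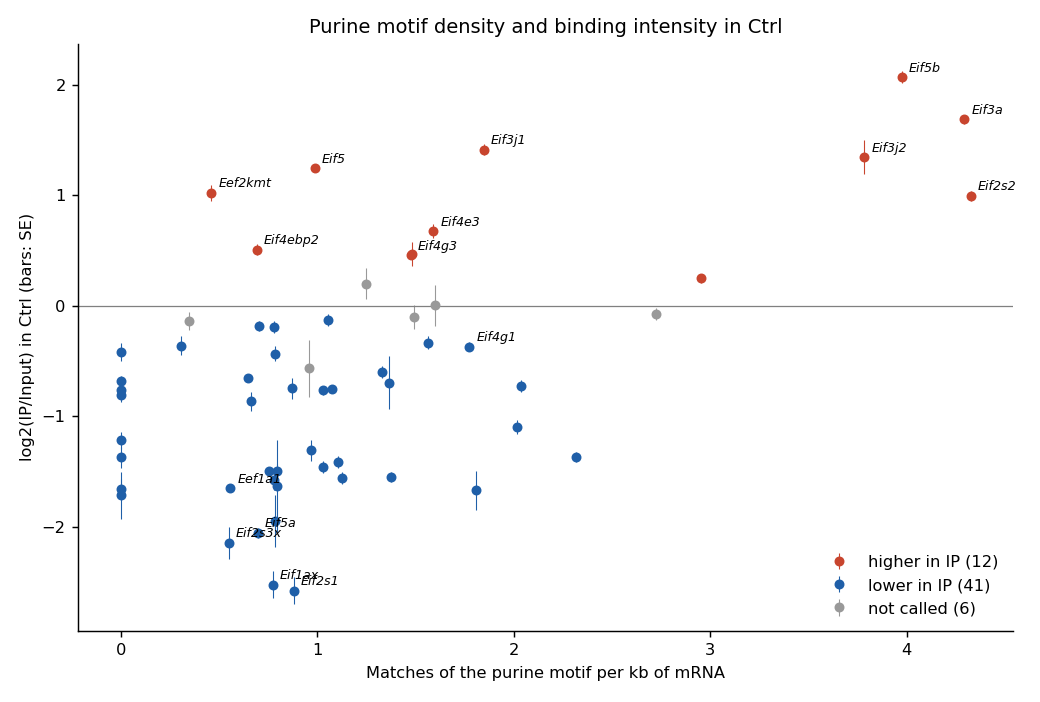
Matches of the purine motif per kilobase of mRNA (horizontal) and log2(IP/Input) in Ctrl with SE bars (vertical) for the 59 tested members, 12 of them above Input (red), 41 below (blue) and 6 past the threshold in neither direction (grey). Eif5b, Eif3a, Eif3j2 and Eif2s2 lie at the right with values from 1.0 to 2.07, while Eif5 and Eef2kmt reach similar values with under 1 match per kb.

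Of the 59 members 55 held GGACT at least once, as did 92.3% of the tested protein-coding genes, and 11 of these 55 were above Input in Ctrl. Among protein-coding genes 34.1% of those with GGACT and 18.0% of those without it were above Input. Of the 4 members without it, *Eif2s2* was above Input. In the Input change with IR the number of GGACT matches had a Spearman coefficient of −0.46 over members and −0.17 over protein-coding genes, and mRNA length one of −0.33 and −0.28. These motifs were searched on the sense strand of the longest protein-coding mRNA, and a match is no measured site of m6A or of YTHDF2.

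Genes next to these factors in the pathway differed between lists. Of 8 genes of the eIF2alpha kinase and stress arm, 7 were above Input in Ctrl and 1 below, with a median of 0.75, where 34.1% of all tested genes were above and 34.6% below. *Eif2ak2*, which encodes the RNA-activated kinase PKR, had a binding intensity of 2.21 in Ctrl and 1.48 in IR, and *Ddit3*, which encodes the stress factor CHOP, had 1.69 and 0.81. Of 14 termination, recycling and poly(A)-binding genes 3 were above and 9 below, among them *Pabpc1*, the main cytoplasmic poly(A)-binding protein, at −1.01. The median of this list was −0.69, as was that of the translation factor members. *Larp1*, which binds mRNAs with a 5′ terminal oligopyrimidine tract downstream of mTOR, had 2.03 in Ctrl and 1.44 in IR, and fell by 0.61 in the Input and by 1.10 in the IP. Of 11 genes of mTOR to cap-binding signalling, 2 rose and 7 fell in the Input, where 21.0% of all tested genes rose and 23.9% fell, with *Mtor* itself falling by 0.71. The 9 mitochondrial translation factor genes had 3 above and 4 below Input in Ctrl, and of the 2 hypusination genes, whose enzymes activate eIF5A, neither was called there. In IR both were below Input, *Dhps* at −0.50 and *Dohh* at −1.5, and the binding intensity of *Dohh* was lower in IR than in Ctrl, with a change of −1.27.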

How the data were processed

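The 12 libraries of YTHDF2 RNA immunoprecipitation and matched Input formed 4 groups of 3. Per the labels and the methods, the authors used Trimmomatic 0.39 for trimming, HISAT for alignment to mm10 and HTSeq for counting over GENCODE M19 genes, and they deposited raw counts per gene, not normalized. The strand setting of the counting is not given in the sources used here. The labels name polyA RNA where the methods name total RNA. Depth on genes is given with the results, and counts of 3 or fewer were treated as a floor.

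The 54446 identifiers were matched to GENCODE M21 (GRCm38, the mm10 assembly) without their version numbers, and 99.9% matched. The HTSeq lines for reads assigned to no gene feature stayed out of library sizes and tests. edgeR 4.0.16 (R 4.3.3) was run with TMM scaling, a filter of 10 or more counts in 3 or more of the libraries compared, the quasi-likelihood test and Benjamini-Hochberg adjustment over all tested genes, with a threshold of 0.05. The comparisons were IP against Input in Ctrl and in IR, the interaction of both, and IR against Ctrl in Input and in IP, each without a block. Standard errors are |log2 fold change|/√F. CPM values use TMM over all 12 libraries, so their ratios can differ from fitted fold changes. Binding intensity per pool is log2 CPM (prior count 2) of the IP minus that of the Input with the same number. For each comparison the main edgeR fit, the DESeq2 fit and the fit with a replicate block were tested on simulated data. The other settings were not. Per the methods, Input is a part of the lysate used for an IP. That IP and Input of the same number share a lysate is an assumption. Their deviations from the group means correlated by −0.019 to 0.015 only, and a blocked fit on the replicate number was run as well. Alternatives were other scalings, DESeq2 1.42.0, other count filters, one fit of all libraries, protein-coding genes only and each replicate left out.

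The genes, gene lists and tests were chosen with earlier results of these data known. Genes with full values were the 3 largest changes per direction and comparison among called genes with pools apart and at least 100 mean counts, plus 15 core genes and *Ythdf2*. Others are named by role or because a count turned on them.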

Additional observations from a re-analysis of the deposited data

Results flagged for a closer look

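The change of binding intensity between conditions, tested as an interaction in edgeR, passed the threshold for 23 genes, and these are listed because their IP-to-Input ratio differed between Ctrl and IR. In the start codon group the log2 changes were −1.24 for *Eif5b*, −0.62 for *Eif2s2*, −0.57 for *Eif1a*, −0.52 for *Eif1ad*, −0.52 for *Eif5*, −0.24 for *Eif1* and 0.81 for *Eif2s3x*. In eIF3 they were −1.03 for *Eif3a*, −0.86 for *Eif3j2*, −0.83 for *Eif3j1*, −0.60 for *Eif3g*, −0.40 for *Eif3k*, −0.39 for *Eif3d* and −0.38 for *Eif3c*. Among the cap-binding genes they were −0.65 for *Eif4e3*, −0.29 for *Eif4g3*, 0.35 for *Eif4g2* and 0.48 for *Eif4g1*, and *Eif2b4* of eIF2B had −0.65. Among the elongation genes they were −0.68 for *Eef2kmt*, −0.44 for *Eef1d*, −0.28 for *Eef1b2* and −0.16 for *Eef1g*. With library size only, *Eef1b2*, *Eef1g*, *Eif1* and *Eif4g3* had the opposite sign.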

How the results depend on the processing

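Among values of single genes, 2254 alternatives kept direction and call, 120 kept the direction and lost the call, 15 gained one and 6 reversed, and of the counts and differences 129 of the alternatives stayed close and 17 moved. The cause of these shifts was not tested. For the change of binding intensity, the number of members higher in IR was 5 with DESeq2 size factors, 5 with DESeq2, 5 with protein-coding genes only, 6 with at least 10 counts in every library and 17 with library size only, when 7 were lower. In the IP, library size only gave 19 higher and 9 lower members, at least 10 counts in every library 15 higher and one fit of all 12 libraries 14 higher. In the Input that fit left 7 lower. All 6 reversals came with library size only, namely *Eef1b2* (0.030), *Eef1g* (0.15), *Eif1* (0.0700) and *Eif4g3* (0.0194) in the change of binding intensity, and *Eef1d* (0.14) and *Eif3c* (0.0347) in the IP. Long minus short was 0.147 in Ctrl and 0.409 in IR by coding length. Initiation minus elongation in Ctrl was 0.266 with a prior count of 0.25 and 0.184 with at least 10 counts in all 12 libraries, and with *Eif5a* and *Eif5a2* counted as initiation it was 0.0926 in Ctrl and 0.0888 in IR.

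With the replicate block, which pairs IP and Input of the same number, 12 members were above and 41 below Input in Ctrl, and 9 above and 43 below in IR. The change of binding intensity then had 3 higher and 19 lower. The calls that changed are given with the results, and no other call did in these 3 comparisons. Ctrl and IR pools share only a number, and the block there gave 23 higher and 20 lower in the Input and 9 higher and 16 lower in the IP. Without that pairing, long minus short was 0.516 in Ctrl and 0.532 in IR. Leaving out single replicates, the counts ranged from 12 to 13 higher and 39 to 40 lower for Ctrl binding, 8 to 9 and 39 to 40 in IR, 2 to 4 and 17 to 20 for the change, 20 to 23 and 15 to 19 in the Input, and 6 to 10 and 12 to 16 in the IP. Genes with few counts, such as *Eif5a2*, *Eef1akmt3* and *Eif4e1b*, are limited by depth. The floor of 3 counts was used only to read low levels and entered no fit.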
